A study of Mus musculus with 24 samples.

Results

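The comparison described here is that of mouse D-EPSCs with the ESCs they were converted from, in 4 of the 24 RNA-seq libraries of the series. Its members were the libraries whose labels name J1 D-EPSCs or J1 ESCs, 2 replicates of each. J1 is a wild-type mouse ESC line. The ESCs were kept in DMEM with 15% fetal bovine serum, LIF at 1000 units per ml and the 2i inhibitors, which are the GSK3 inhibitor CHIR99021 at 3 µM and the MEK inhibitor PD0325901 at 1 µM. The D-EPSCs were kept in N2B27 medium, a serum-free mix of DMEM/F12 and Neurobasal with the N2 and B27 supplements, to which 5% KnockOut Serum Replacement (KSR), LIF at 1000 units per ml, CHIR99021 at 3 µM, dimethindene maleate at 2 µM and minocycline hydrochloride at 2 µM were added. LIF and CHIR99021 were thus common to both media, and serum and PD0325901 were in the ESC medium alone. The 2 J1 L-EPSC libraries of the same table, from a medium with 20% KSR, LIF, CHIR99021, PD0325901, A-419259, XAV939, JNK inhibitor VIII and SB203580, served to show where D-EPSCs stood apart.

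All groups come from the same line, and the study's methods state that both kinds of EPSC were taken off feeder cells for several passages before RNA was made, while the ESCs were on mouse embryonic fibroblast feeders or on gelatin, without saying which for these libraries. Whether the replicates were separate derivations is not stated, so p-values measure the spread between these libraries only. The values are normalized counts, that is, poly(A) RNA-seq reads per gene divided by the size factor of the library. Reads on genes came to 15069899 and 14673564 in the ESC libraries, 12659326 and 13186454 in the D-EPSC libraries, and 12965700 and 11612919 in the L-EPSC libraries. Pou5f1, the pluripotency factor OCT4, had 11628 and 11833 normalized counts in the ESC libraries and 10425 and 10325 in the D-EPSC libraries, and Zfp42, which encodes the ESC marker REX1, had 9548 and 9435 normalized counts in the ESC libraries and 7709.6 and 7763 in the D-EPSC libraries, so that defining markers of pluripotent cells were abundant in both states.

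Wnt and ERK genes are compared here between the D-EPSC and L-EPSC libraries, whose labelled media differ in XAV939 and PD0325901. XAV939, which stabilizes AXIN and so lowers Wnt signalling, is in the L-EPSC medium alone, while the GSK3 inhibitor CHIR99021 is in both. Yet 11 of 18 Wnt target genes tested below the L-EPSC level in the D-EPSC libraries and 1 above it, with a median difference of −1.05. Of all genes tested, 8.58% were called higher and 4.8% lower in the D-EPSC than in the L-EPSC libraries, which is the background for each count of list members called between these libraries. PD0325901, which blocks ERK signalling, is in the L-EPSC medium and not in the D-EPSC medium. Of 28 ERK genes, 6 were called lower in the D-EPSC libraries and 3 higher. Their median difference was −0.05, near 0, while the calls leaned towards lower. Among those called lower was Etv4, with 391 and 352 normalized counts in the D-EPSC libraries and 2977 and 2948 in the L-EPSC libraries. Its log2 fold change was −2.99 for D-EPSCs minus L-EPSCs. The cause of these differences was not tested. D-EPSC and L-EPSC below mean the libraries labelled so, and every direction drawn against ESCs or against L-EPSCs rests on that label.

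As background, LIF, which acts through STAT3, and CHIR99021, which stabilizes beta-catenin, hold mouse ESCs in the naive state, and PD0325901 adds to this by keeping FGF and ERK signalling from starting differentiation. When ERK signalling is released, ESCs leave the naive state through a formative state towards a primed state, marked by genes such as Otx2. D-EPSC culture was devised to keep cells that can contribute to extraembryonic as well as embryonic tissues, with minocycline and the antihistamine dimethindene as its added compounds.

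All 21533 genes with enough reads entered a limma fit on log2(normalized count + 1). Called genes are those with a Benjamini-Hochberg adjusted p below 0.05 that differed by more than 0.6 on the log2 scale. This scale understates the change of genes with few reads. A value alone in brackets after a gene is its log2 fold change, D-EPSCs minus ESCs. In D-EPSCs 2316 genes were called higher than in ESCs, which is 10.8% of those tested, and 2150 were called lower, which is 9.98%. These percentages are the background against which the counts of each gene list below are read, together with the median log2 fold change of all genes tested, 0.01. The genes called higher held between 3.20% and 3.22% of all normalized counts in the ESC libraries and between 7.44% and 7.49% in the D-EPSC libraries. The genes called lower held between 13.3% and 13.4% in ESCs and between 6.35% and 6.36% in D-EPSCs. Log2 fold changes beyond 4 were found for 96 of the genes called higher and 92 of those called lower. The ESC and D-EPSC libraries did not overlap in 64.8% of all genes tested. Among called genes this held for 4466 of 4466, so that lack of overlap adds nothing to a call. For each autosome and X, the median log2 fold change of genes averaging at least 100 normalized counts lay between −0.08 and 0.03.

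**Figure D1:**
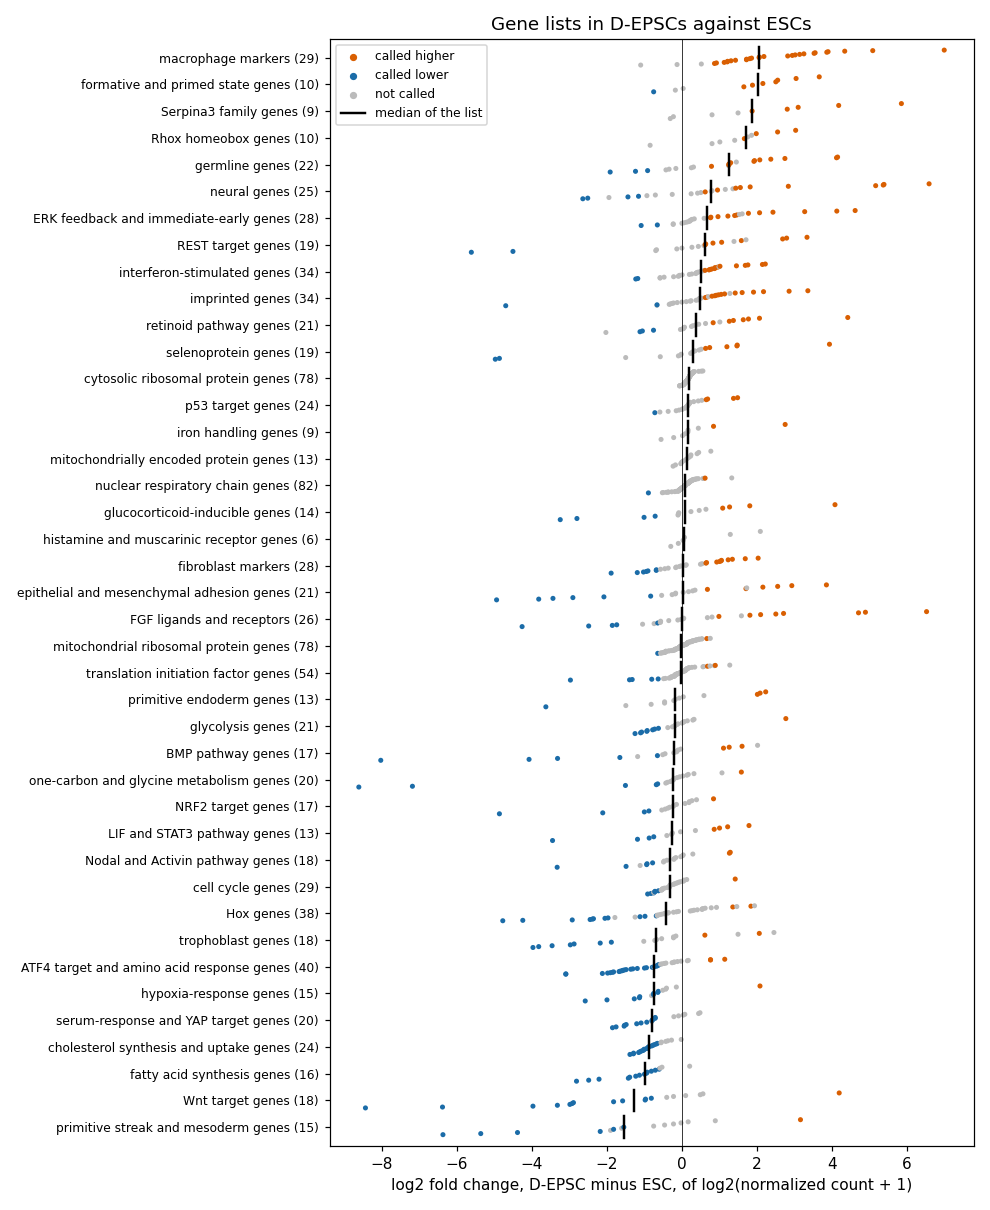
Log2 fold change, D-EPSC minus ESC, of each tested member of the 41 gene lists, with the number tested in brackets, lists ordered by their median (black bar). Orange points were called higher, blue points lower and grey points neither. Macrophage markers have the highest median (2.06), primitive streak genes the lowest (−1.55), and the cytosolic ribosomal protein genes cluster near 0 (0.18).

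Markers of other cells moved with the groups and are therefore given before the rest. Macrophage markers were higher in D-EPSCs. Of the 29 macrophage markers tested, 26 were called higher and 0 lower in D-EPSCs, with a median log2 fold change of 2.06. Besides edgeR and DESeq2, which also called 0 lower, an unadjusted p under 0.05 was found for 1 lower member, and without ESC replicate 2 limma called 1 lower. Summed over the list, they made up 0.0569% and 0.0574% of the normalized counts in the ESC libraries, 0.261% and 0.265% in the D-EPSC libraries, and 0.185% and 0.186% in the L-EPSC libraries. Lyz2, the lysozyme of macrophages, had 1085 and 1068 normalized counts in the ESC libraries and 15553 and 15802 in the D-EPSC libraries, with 13018 and 12965 in the L-EPSC libraries, and the ESC and D-EPSC libraries did not overlap (log2 fold change 3.86, SE 0.02, limma adjusted p = 1.2e-10). C1qa, a subunit of complement C1q that macrophages make, had 99.7 and 121 normalized counts in the ESC libraries and 1565 and 1738 in the D-EPSC libraries (log2 fold change 3.90, SE 0.10, limma adjusted p = 1.1e-07). Adgre1, which encodes the F4/80 antigen, went from 152 and 117 normalized counts to 1299.9 and 1259, Csf1r, the receptor for macrophage colony-stimulating factor, from 111 and 150.3 normalized counts to 419 and 439.6, and both were called. Of the 29 markers, Lyz1 was at 0 in both ESC libraries, Ccl4 and Cx3cr1 were at 0 in ESC replicate 2, and Cx3cr1, a marker of microglia and monocytes, was at 0 in both D-EPSC libraries. The calls of Aif1, Ccl4 and Ptprc were lost without a single library, for instance without D-EPSC replicate 1, where their log2 fold changes were 1.15, 4.60 and 0.98 (limma adjusted p = 0.18, 0.17 and 0.097).

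Fibroblast markers moved in both directions. Of the 28 fibroblast markers tested, 10 were called higher and 7 lower in D-EPSCs, with a median log2 fold change of 0.04. Their summed share of the normalized counts was 1.28% and 1.30% in ESCs, 0.935% and 0.938% in D-EPSCs, and 0.449% and 0.457% in L-EPSCs. The largest losses in counts were those of the collagen I genes. Col1a1 fell from 44565 and 46016 normalized counts to 19651 and 20021 (log2 fold change −1.19, SE 0.03, limma adjusted p = 9.4e-08) and Col1a2 from 23525 and 24167 normalized counts to 14861 and 14798 (−0.69). Lox, which crosslinks collagen, fell from 7371 and 7371 normalized counts to 2011 and 1972. Col3a1, another fibrillar collagen, stood at 17158 and 17301 normalized counts in the ESC libraries and 16451 and 16452 in the D-EPSC libraries and was not called (−0.07). The members that rose included Pdgfra, a receptor of platelet-derived growth factor that primitive endoderm expresses too, from 215 and 208 normalized counts to 870.0 and 867 (log2 fold change 2.03, SE 0.07, limma adjusted p = 3.5e-07), the proteoglycan Dcn (1.35), and the collagen VI genes Col6a1 (1.01) and Col6a2 (1.05). Fewer cells of a type and less RNA per cell cannot be told apart in bulk RNA. Likewise RNA of feeder cells and expression by the stem cells themselves cannot be told apart for these genes, and their part in the other results was not tested beyond the values given beside them.

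**Figure D2:**
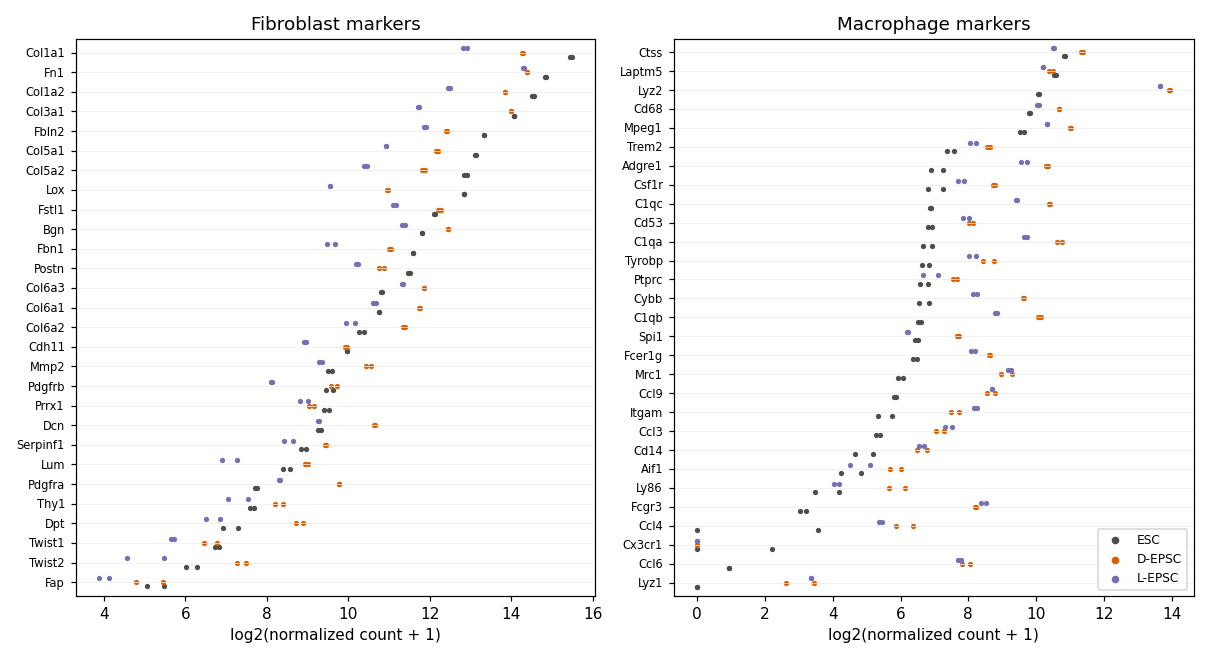
Log2(normalized count + 1) of fibroblast markers (left) and macrophage markers (right) in each library, ordered by their mean in ESCs, with 2 points for each state. D-EPSC points lie to the right of the ESC points for most macrophage markers, with Lyz2 at 15553 and 15802 normalized counts, while fibroblast markers lie on both sides.

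Targets of ERK signalling were called higher more often than lower in D-EPSCs. Of the 28 ERK feedback and immediate-early genes tested, 12 were called higher and 2 lower in D-EPSCs, with a median log2 fold change of 0.68. Egr1, an immediate-early transcription factor of the ERK pathway, had 4.49 and 4.61 normalized counts in the ESC libraries and 136 and 135 in the D-EPSC libraries, with 466 and 468 in the L-EPSC libraries (log2 fold change 4.62, SE 0.17, limma adjusted p = 6.5e-07). Spry4, a feedback inhibitor of the pathway, had 94.4 and 101.4 normalized counts in the ESC libraries and 1800.3 and 1661 in the D-EPSC libraries, a 17.7-fold difference (log2 fold change 4.13, SE 0.06, limma adjusted p = 1.2e-08). Dusp6, the phosphatase that inactivates ERK, rose from 73.7 and 80.2 normalized counts to 763 and 742 (log2 fold change 3.27, SE 0.07, limma adjusted p = 5.8e-08). In Egr1, Spry4 and Dusp6 the ESC libraries were lowest and the L-EPSC libraries highest, with no overlap among the 3 states. The median of the 28 genes for L-EPSCs minus ESCs, whose media both held PD0325901, was 0.81. The rise was thus not particular to D-EPSCs, and its cause was not tested. Spred1 (2.07), Dusp5 (1.77), Spry2 (1.46) and Spry1 (1.41), further feedback inhibitors, rose as well, as did the AP-1 subunits Fos (2.43) and Jun (0.76). The ETS factors Etv4 and Etv5, which also respond to FGF, were not called, with 302 and 357 normalized counts in the ESC libraries and 391 and 352 in the D-EPSC libraries for Etv4 (0.18) and a log2 fold change of −0.23 for Etv5. The repressor Nab2 (−1.09) and Ier3 (−0.66) were called lower, and the call of Ier3 was lost without ESC replicate 1 (−0.53) or D-EPSC replicate 1 (−0.56).

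Several FGF ligands changed, in both directions. Of the 26 FGF ligands and receptors tested, 8 were called higher and 5 lower in D-EPSCs, with a median log2 fold change of 0.01, and without ESC replicate 1 the number called higher was 5, without D-EPSC replicate 2 the number called lower was 3. Fgf1, the acidic FGF, had 0.899 and 0.922 normalized counts in the ESC libraries and 171 and 179 in the D-EPSC libraries, with 8.22 and 9.19 in the L-EPSC libraries. The ESC value rests on 1 read in each library, and the ratio of D-EPSCs to ESCs was 192 (95% counting interval 52.8 to 1593) (log2 fold change 6.52, SE 0.37, limma adjusted p = 5.9e-06). Fgf15 rose from 3.59 and 6.46 normalized counts to 179 and 167 (log2 fold change 4.89, SE 0.34, limma adjusted p = 1.7e-05) and Fgf17, of the same family, from 9.88 and 15.7 normalized counts to 353 and 349 (log2 fold change 4.71, SE 0.21, limma adjusted p = 1.8e-06). Fgfr2, a receptor for several of these ligands, rose from 44.0 and 36.9 normalized counts to 174 and 178 (2.10). Fgf10, a ligand of mesenchyme, fell from 225 and 192 normalized counts to 41.9 and 31.3 (−2.49), and Fgf3 fell by 4.26 on the log2 scale. Fgf4, the main FGF of ESCs, stayed inside the threshold (−0.57).

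Most Wnt target genes fell, with CHIR99021 in both media at the same dose. Of the 18 Wnt target genes tested, 1 was called higher and 12 lower in D-EPSCs, with a median log2 fold change of −1.28. Cdx1, a caudal homeobox factor of the posterior body axis, had 875 and 822 normalized counts in the ESC libraries and 1.02 and 1.96 in the D-EPSC libraries, with 464 and 552 in the L-EPSC libraries. The D-EPSC libraries held 3 reads in all, and the ratio of ESCs to D-EPSCs was 569.6 (95% counting interval 193 to 2748) (log2 fold change −8.44, SE 0.21, limma adjusted p = 9.2e-08). Sp5, a zinc finger factor that is induced directly by beta-catenin, had 120.4 and 115 normalized counts in the ESC libraries and 1.02 and 0 in the D-EPSC libraries, with 45.2 and 48.3 in the L-EPSC libraries, a ratio of ESCs to D-EPSCs of 231 (95% counting interval 42.0 to 9351). Axin2, the feedback inhibitor by which Wnt activity is commonly read, fell from 767 and 706 normalized counts to 109 and 88.1 (log2 fold change −2.89, SE 0.11, limma adjusted p = 6.4e-07), while the L-EPSC libraries, at 708 and 714, lay among those of ESCs. Lgr5, which encodes a receptor for R-spondins, fell to 7.15 and 10.8 in D-EPSCs (−3.32), with 1.03 and 2.30 in L-EPSCs. Notum, a secreted Wnt inhibitor gene, fell to 628 and 671 in D-EPSCs (−0.97), with 433 and 429 in L-EPSCs. In both genes L-EPSCs were thus the lowest state. Tnfrsf19 (−1.58) fell in D-EPSCs as well. Lef1, a partner of beta-catenin on DNA, was the exception and rose from 6.29 and 8.30 normalized counts to 144 and 156 (log2 fold change 4.19, SE 0.19, limma adjusted p = 1.8e-06). Apcdd1 (−0.98) lost its call whichever of the 6 libraries was left out (limma adjusted p = 0.16 without ESC replicate 1).

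The promoter of Sp5 is shown because its RNA was nearly lost from D-EPSCs. Promoter sequences are those of RefSeq on GRCm38.p6, a later build than the one the reads were counted on, and were found for 14045 of the 21533 tested genes by symbol. The 250 bases before the start site of Sp5 at chr2:70474673-70474922 on the plus strand follow 5′ to 3′, with a match to CTTTGAT, the letters bound by TCF and LEF factors, in capitals.
Sp5: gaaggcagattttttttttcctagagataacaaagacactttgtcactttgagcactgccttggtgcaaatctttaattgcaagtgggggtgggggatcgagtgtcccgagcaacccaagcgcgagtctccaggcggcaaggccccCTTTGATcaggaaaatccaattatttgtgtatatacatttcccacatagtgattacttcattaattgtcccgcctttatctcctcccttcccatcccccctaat
These letters, searched on both strands, were in the promoter windows of 2 of the 13 Wnt target genes with a promoter here, Sp5 and Tnfrsf19, and in those of 3.31% of all tested genes with a promoter. In Sp5 they start 104 bases before the start site. A match is a description and not a binding site, and the list was drawn from known Wnt targets.

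Genes of the primitive streak and of posterior mesoderm followed the same direction. Of the 15 primitive streak and mesoderm genes tested, 1 was called higher and 6 lower in D-EPSCs, with a median log2 fold change of −1.55, and without ESC replicate 1 or ESC replicate 2 the number called lower was 3. Nkx1-2, a homeobox gene of posterior progenitors, had 551 and 552 normalized counts in the ESC libraries and 11.2 and 13.7 in the D-EPSC libraries, with 471 and 432 in the L-EPSC libraries (log2 fold change −5.36, SE 0.13, limma adjusted p = 9.4e-08). Eomes, a T-box factor of the streak and of trophoblast, fell from 146 and 124 normalized counts to 31.7 and 26.4 (−2.18), against 453 and 446 in L-EPSCs. Gsc, the organizer gene goosecoid, had 109.6 and 125 normalized counts in the ESC libraries and 1.02 and 0 in the D-EPSC libraries, a ratio of ESCs to D-EPSCs of 229 (95% counting interval 41.6 to 9279). Of the 38 Hox genes tested, 2 were called higher and 11 lower in D-EPSCs, with a median log2 fold change of −0.42. Hox genes of the HoxC cluster led those called lower. Hoxc12 fell from 174 and 157 normalized counts to 10.2 and 5.87 (log2 fold change −4.24, SE 0.47, limma adjusted p = 0.00022) and Hoxc4 from 150.1 and 146 normalized counts to 23.5 and 29.4 (log2 fold change −2.45, SE 0.26, limma adjusted p = 0.00017). The Hox counts rest on few reads, and without ESC replicate 1, ESC replicate 2 or D-EPSC replicate 1 between 3 and 6 were called lower. With any 1 of the 6 libraries left out, the number called higher was 0 or 1. Against L-EPSCs, 9 Hox genes were called higher in D-EPSCs, and limma, edgeR and DESeq2 each called 0 lower. The streak genes went the other way there, with 2 higher and 7 lower. Summed Hox counts were 2005 and 1882 in ESCs, 904 and 998 in D-EPSCs and 564 and 606 in L-EPSCs. The summed fibroblast markers had the same order, and the part of feeder RNA in the Hox values was not tested.

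**Figure D3:**
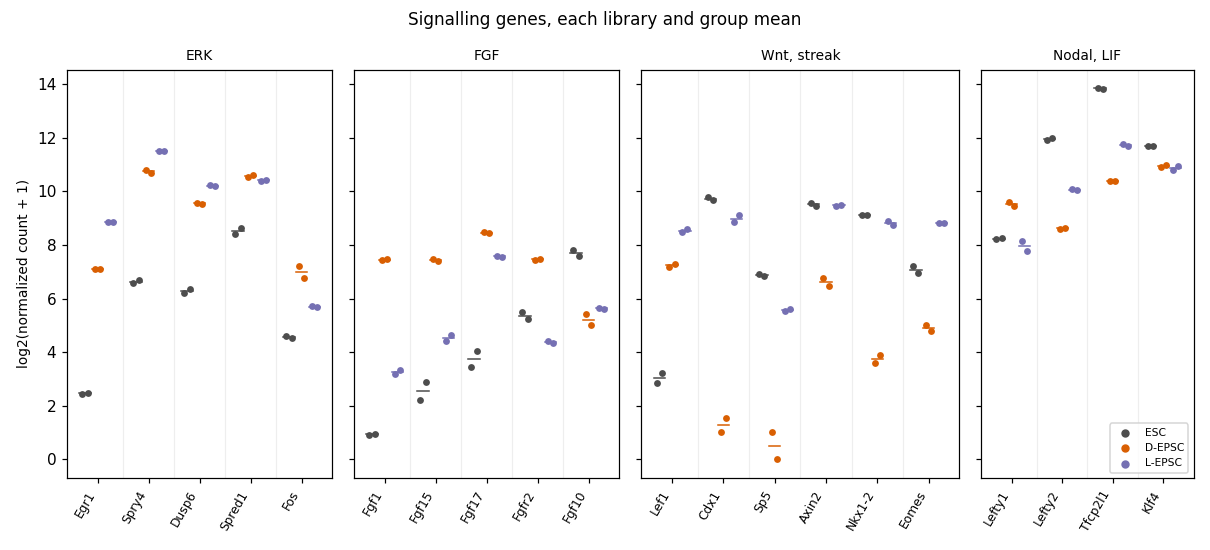
Log2(normalized count + 1) of genes of the ERK, FGF, Wnt and Nodal or LIF pathways and of the primitive streak, with a point for each library and a bar for each group mean. D-EPSCs lie above ESCs for the ERK genes and below them for Cdx1, Sp5, Axin2 and Nkx1-2, and the L-EPSC points of Axin2, at 708 and 714 normalized counts, lie level with ESCs.

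In the Nodal and Activin pathway, the counts were 2 higher and 5 lower of 18 tested (median −0.31). The Nodal inhibitors Lefty1 and Lefty2, which are neighbours on chromosome 1, moved in opposite directions. Lefty2 fell from 3875 and 4071 normalized counts to 391 and 398 (log2 fold change −3.33, SE 0.04, limma adjusted p = 7.8e-09) and Lefty1 rose from 295 and 308 normalized counts to 769 and 708 (log2 fold change 1.29, SE 0.13, limma adjusted p = 0.00011). As close paralogs they may share reads, so that the value of each is uncertain. Nodal itself fell from 1037 and 1093 normalized counts to 519.8 and 590.3 (−0.94). Fst (−0.78), an Activin antagonist, lost its call whichever of the 6 libraries was left out (limma adjusted p = 0.34 without ESC replicate 2). Of 17 BMP pathway genes, 3 were called higher and 5 lower (median −0.22). The direct target Id1 rose from 92.6 and 76.5 normalized counts to 177 and 189 (1.11) and Id2 from 95.3 and 85.8 normalized counts to 222 and 214 (1.26), while the inhibitory Smads Smad6 (−1.66) and Smad7 (−0.65) fell. Tlx2, a homeobox gene responsive to BMP, had 268 and 254 normalized counts in the ESC libraries and 0 and 0 in the D-EPSC libraries, at least 85.1-fold lower against a floor of 3 reads in a library.

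Both media held LIF, and of 13 LIF and STAT3 pathway genes 4 were called higher and 4 lower (median −0.25). Tfcp2l1, a naive pluripotency factor downstream of STAT3, showed one of the largest falls in counts, from 14748 and 14588 normalized counts to 1353 and 1328 (log2 fold change −3.45, SE 0.03, limma adjusted p = 9.7e-10). Klf4 (−0.75) and the kinase gene Pim1 (−1.18) fell, and Gbx2 (1.79), Osmr (0.86) and the feedback inhibitor Socs2 (1.003) rose. Of the 21 retinoid pathway genes tested, 7 were called higher and 3 lower in D-EPSCs, with a median log2 fold change of 0.36. Crabp1, a retinoic acid binding protein, rose from 217 and 201 normalized counts to 836 and 926 (2.07) and the receptor gene Rara (1.37) rose. Without ESC replicate 1 or ESC replicate 2 the number of retinoid genes called lower was 1.

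Genes of the formative and primed states were higher in D-EPSCs, and neural genes were called higher more often than lower. Of the 10 formative and primed state genes tested, 7 were called higher and 1 lower in D-EPSCs, with a median log2 fold change of 2.02. Otx2, a driver of the exit from the naive state, had 117 and 106 normalized counts in the ESC libraries and 887 and 965 in the D-EPSC libraries, with 541 and 517 in the L-EPSC libraries (log2 fold change 3.04, SE 0.08, limma adjusted p = 1.4e-07). Trh, the thyrotropin-releasing hormone precursor, rose from 209 and 267 normalized counts to 2977 and 3038 (log2 fold change 3.66, SE 0.10, limma adjusted p = 1.5e-07), and the epithelial transcription factor Grhl2 rose from 38.6 and 36.9 normalized counts to 233 and 220.3 (2.55). Fgf5, the classical marker of primed cells, was low, with 2.696 and 1.84 normalized counts in the ESC libraries and 25.5 and 11.7 in the D-EPSC libraries (log2 fold change 2.50, SE 0.55, limma adjusted p = 0.0085), and its call was lost without ESC replicate 1 (limma adjusted p = 0.07) or ESC replicate 2 (0.091). Foxd3 was the member called lower (−0.75), which it was not without ESC replicate 2 (limma adjusted p = 0.063).

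Of the 25 neural genes tested, 10 were called higher and 4 lower in D-EPSCs, with a median log2 fold change of 0.78. Pax6, a master regulator of eye and forebrain, had 0.899 and 2.77 normalized counts in the ESC libraries and 253 and 260.4 in the D-EPSC libraries, with 11.3 and 20.7 in the L-EPSC libraries and was 140.1-fold higher in D-EPSCs than in ESCs (log2 fold change 6.59, SE 0.45, limma adjusted p = 1.7e-05). Sox11 rose from 2.696 and 4.61 normalized counts to 181 and 194 (log2 fold change 5.37, SE 0.26, limma adjusted p = 2.3e-06), with L-EPSCs at 192 and 176, a level that did not differ from D-EPSCs beyond the threshold (0.03 for D-EPSCs minus L-EPSCs). Zic2, a zinc finger factor of the neural plate, rose from 568 and 580.1 normalized counts to 1679.8 and 1704 (1.56) and the neuronal tubulin Tubb3 from 911 and 857 normalized counts to 2339 and 2446 (1.44). The increase did not extend to all neural genes. Nes, which encodes nestin, fell from 1059 and 1036 normalized counts to 388 and 383 (−1.44), and so did Mapt (−2.51) and Ncam1 (−1.16). Sox21 had a log2 fold change of 2.84, and its call was lost when any of the 4 ESC and D-EPSC libraries was left out (limma adjusted p = 0.077 without ESC replicate 1). Among 19 neuronal genes that REST silences, 8 were called higher and 2 lower. Without ESC replicate 2, D-EPSC replicate 1 or D-EPSC replicate 2 the number called higher was 4 or 5. The fall of Nefm, a neurofilament gene, from 798 and 799.6 normalized counts to 18.4 and 12.7 (−5.62), and of the glutamate receptor gene Grin1 from 797 and 853 normalized counts to 39.8 and 31.3 (−4.51) exceeded any rise in that list.

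Trophoblast genes were more often called lower than higher. Of the 18 trophoblast genes tested, 2 were called higher and 7 lower in D-EPSCs, with a median log2 fold change of −0.70, and without ESC replicate 1 or ESC replicate 2 the number called lower was 4. Tead4, the factor with which the trophectoderm programme starts, fell from 734 and 753 normalized counts to 60.2 and 73.4 (log2 fold change −3.46, SE 0.12, limma adjusted p = 5.4e-07). Krt8, a keratin of trophectoderm and simple epithelia, fell from 594 and 575 normalized counts to 41.9 and 39.2 (log2 fold change −3.82, SE 0.14, limma adjusted p = 5.1e-07). Gata3, a trophectoderm factor, had 53.02 and 61.8 normalized counts in the ESC libraries and 6.13 and 7.83 in the D-EPSC libraries (−2.88). Cdx2, the caudal factor of trophectoderm, had 25.2 and 27.7 normalized counts in the ESC libraries and 2.04 and 0 in the D-EPSC libraries, a ratio of ESCs to D-EPSCs of 25.9 (95% counting interval 6.99 to 223). Both were called lower at few reads, and the call of Cdx2 was lost without ESC replicate 1 or ESC replicate 2 (limma adjusted p = 0.059 without ESC replicate 1). Tfap2c rose by 0.61, at the edge of the threshold, and its value was 0.56 without ESC replicate 2, where 0 members were called higher at all. Among primitive endoderm genes, 3 of 13 were called higher and 1 lower, and without ESC replicate 1, D-EPSC replicate 1 or D-EPSC replicate 2 the number higher was 1, while without either L-EPSC library the number lower was 2. Dab2, an endocytic adaptor of that lineage, rose from 167 and 159.5 normalized counts to 651 and 673 (log2 fold change 2.01, SE 0.07, limma adjusted p = 6e-07). Gata6 and Gata4, which define it, stayed low, with 17.1 and 24.9 normalized counts in the ESC libraries and 24.5 and 15.7 in the D-EPSC libraries for Gata6 (−0.07), and were not called.

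Epithelial junction genes moved in both directions. Of the 21 epithelial and mesenchymal adhesion genes tested, 6 were called higher and 6 lower in D-EPSCs, with a median log2 fold change of 0.03. P-cadherin, encoded by Cdh3, rose from 102 and 140.2 normalized counts to 872 and 962 (log2 fold change 2.93, SE 0.15, limma adjusted p = 3.3e-06), and Epcam from 518 and 493 normalized counts to 1727 and 1582 (log2 fold change 1.71, SE 0.08, limma adjusted p = 2.1e-06). E-cadherin, encoded by Cdh1, fell from 7461 and 7507 normalized counts to 4165 and 4232 (log2 fold change −0.83, SE 0.03, limma adjusted p = 2.9e-07). The tight junction genes Cldn4 (−2.91) and Ocln (−3.44) fell and Cldn6 (2.16) rose. Esrp2, a regulator of splicing in epithelia, fell from 286 and 289 normalized counts to 86.8 and 51.9 (−2.08).

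Targets of serum response factor and of YAP fell. Of the 20 serum-response and YAP target genes tested, 0 were called higher and 13 lower in D-EPSCs, with a median log2 fold change of −0.79. Neither edgeR nor DESeq2 called any of them higher either, and 2 were higher at an unadjusted p under 0.05. The median of the list for L-EPSCs minus ESCs was −0.91, so the fall was not particular to D-EPSCs, and its cause was not tested. Acta2, smooth muscle actin, fell from 2859 and 2993 normalized counts to 871 and 859 (log2 fold change −1.76, SE 0.04, limma adjusted p = 8.1e-08), with L-EPSCs at 692 and 691. Thbs1, thrombospondin, fell from 11901 and 12046 normalized counts to 4162 and 4381 (log2 fold change −1.49, SE 0.03, limma adjusted p = 4.1e-08). The YAP targets Ccn2 from 869.9 and 836 normalized counts to 379.9 and 358 (−1.21) and Ccn1 from 812 and 879.8 normalized counts to 528 and 469.9 (−0.76) fell as well. Fibroblasts express many of these genes. The summed fibroblast markers were 1.37-fold higher in ESCs than in D-EPSCs, against a 3.38-fold difference for Acta2 and 2.80-fold for Thbs1. Single fibroblast markers had log2 fold changes from −1.89 to 2.03, a range that includes those of Acta2 and Thbs1. The part of fibroblast RNA in the fall was not tested. Cnn1 (−1.85) was not called without ESC replicate 1, D-EPSC replicate 1 or D-EPSC replicate 2 (limma adjusted p = 0.075 without ESC replicate 1).

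Lipid synthesis genes fell together. Of the 24 cholesterol synthesis and uptake genes tested, 0 were called higher and 18 lower in D-EPSCs, with a median log2 fold change of −0.89. Of the 16 fatty acid synthesis genes, 0 were called higher and 13 lower (median −0.97). Called higher by edgeR or DESeq2 were 0 of either list, and at an unadjusted p under 0.05 the numbers higher were 0 cholesterol genes and 1 fatty acid gene. The desaturases that make monounsaturated fatty acids changed most. Scd2 (chromosome 19 from 44368166 to 44381354 of NCBIM37) had 30977 and 31224 normalized counts in the ESC libraries and 5556 and 5541 in the D-EPSC libraries, with 18291 and 18396 in the L-EPSC libraries (log2 fold change −2.49, SE 0.02, limma adjusted p = 1.6e-10). Scd1 had 9693 and 9569 normalized counts in the ESC libraries and 1409 and 1334 in the D-EPSC libraries, with 4126 and 4369 in the L-EPSC libraries (log2 fold change −2.81, SE 0.04, limma adjusted p = 7.8e-09). ESCs held the most and D-EPSCs the least of either RNA, with L-EPSCs between them and no overlap. Fatty acid synthase, Fasn, fell from 20288 and 20429 normalized counts to 8778 and 8559 (log2 fold change −1.23, SE 0.02, limma adjusted p = 1.9e-08), Acaca, which makes its substrate, from 2797 and 2738 normalized counts to 1398 and 1516 (−0.93), and Me1, the malic enzyme that supplies NADPH, from 1922 and 1903 normalized counts to 444 and 383 (−2.21). The members not called were 3 fatty acid genes and 6 cholesterol genes.

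In the cholesterol pathway, Fdft1, squalene synthase, fell from 2854 and 2803 normalized counts to 1356 and 1238 (log2 fold change −1.13, SE 0.05, limma adjusted p = 1.1e-06), with L-EPSCs at 1939 and 1961. Ebp, a sterol isomerase late in the pathway, fell from 581 and 585 normalized counts to 223 and 222 (log2 fold change −1.39, SE 0.07, limma adjusted p = 3.3e-06). Insig1, which holds the pathway's transcription factors in the endoplasmic reticulum when sterols are plentiful and is itself their target, fell from 1576 and 1519 normalized counts to 586 and 682 (log2 fold change −1.29, SE 0.07, limma adjusted p = 4.4e-06). The genes of these factors, Srebf1, from 2605 and 2681 normalized counts to 1338 and 1305, and Srebf2 (−0.91), fell as well. Tested directly against L-EPSCs, 17 cholesterol genes and 10 fatty acid genes were lower in D-EPSCs, against 4.8% of all genes tested, at medians of −0.92 and −0.70. That comparison shares the D-EPSC libraries with the comparison against ESCs. The letters TCACNCCAC, a core of the sterol regulatory element on either strand, were in the promoter windows of 0 of 16 cholesterol genes and 0 of 13 fatty acid genes with a promoter, against 1.51% of all tested genes with a promoter. At so low a share, lists of this size cannot be told from the background, and no conclusion is drawn from these counts.

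Genes of the amino acid response, which ATF4 induces when amino acids are short or the eIF2 kinases are active, were mostly lower in D-EPSCs. Of the 40 ATF4 target and amino acid response genes tested, 3 were called higher and 25 lower in D-EPSCs, with a median log2 fold change of −0.74. The median for L-EPSCs minus ESCs was −0.96, so the fall was not particular to D-EPSCs. Against L-EPSCs, 11 members were called higher and 5 lower in D-EPSCs, against 8.58% and 4.8% of all genes tested. Atf4 itself had 4421 and 4512 normalized counts in the ESC libraries and 1026 and 1025 in the D-EPSC libraries, with 577 and 623 in the L-EPSC libraries (log2 fold change −2.12, SE 0.05, limma adjusted p = 5.5e-08). Asns, asparagine synthetase (chromosome 6 from 7625169 to 7643254), fell from 7375 and 7277 normalized counts to 1839 and 1869 (log2 fold change −1.98, SE 0.03, limma adjusted p = 7.8e-09). Chac1, which degrades glutathione, fell from 264 and 282 normalized counts to 71.5 and 72.4 (log2 fold change −1.91, SE 0.17, limma adjusted p = 7.3e-05). Ddit3, encoding CHOP, fell from 502 and 475 normalized counts to 144 and 179 (−1.60) and the pseudokinase gene Trib3 from 758 and 884 normalized counts to 277 and 271 (−1.58). The transsulfuration enzymes, which make cysteine from homocysteine, showed the largest falls in the list. Cbs fell from 516 and 539.5 normalized counts to 53.1 and 69.5 (log2 fold change −3.10, SE 0.15, limma adjusted p = 2.2e-06) and Cth from 557 and 568 normalized counts to 69.4 and 60.7 (log2 fold change −3.10, SE 0.12, limma adjusted p = 8.1e-07). Not all members followed. Phgdh, which starts serine synthesis, rose from 1032 and 1011 normalized counts to 1741 and 1724 (0.76), the cationic amino acid transporter Slc7a3 rose from 964 and 869 normalized counts to 1959.6 and 2083 (1.14), and Hspa5, a chaperone of the endoplasmic reticulum, which was not in the list and was chosen after its value was seen, stayed inside the threshold (−0.30). Bcat1, a transaminase of branched-chain amino acids, was among the genes with the largest falls in counts, from 12122 and 12000.0 normalized counts to 3605 and 3629 (log2 fold change −1.74, SE 0.02, limma adjusted p = 7.8e-09).

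The promoters of 4 of these genes are shown because they fell together and hold the letters TGATGNAA, the core of the element to which ATF4 binds with its partners. They are Asns at chr6:7693210-7693459 on the minus strand, Chac1 at chr2:119350992-119351241 on the plus strand, Pck2 at chr14:55540016-55540265 on the plus strand and Pycr1 at chr11:120643749-120643998 on the minus strand, from RefSeq on GRCm38.p6, 250 bases up to the start site, 5′ to 3′, with the match on either strand in capitals.
Asns: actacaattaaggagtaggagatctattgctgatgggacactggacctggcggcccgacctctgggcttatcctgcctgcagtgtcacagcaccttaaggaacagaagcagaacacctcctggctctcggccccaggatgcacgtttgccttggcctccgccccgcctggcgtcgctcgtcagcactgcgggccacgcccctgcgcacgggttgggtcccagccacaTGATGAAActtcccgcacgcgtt
Chac1: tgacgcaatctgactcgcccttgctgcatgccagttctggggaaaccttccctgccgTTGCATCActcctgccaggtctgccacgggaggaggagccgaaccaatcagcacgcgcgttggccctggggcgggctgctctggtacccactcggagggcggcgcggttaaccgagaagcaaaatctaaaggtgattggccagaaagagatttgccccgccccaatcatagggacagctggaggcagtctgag
Pck2: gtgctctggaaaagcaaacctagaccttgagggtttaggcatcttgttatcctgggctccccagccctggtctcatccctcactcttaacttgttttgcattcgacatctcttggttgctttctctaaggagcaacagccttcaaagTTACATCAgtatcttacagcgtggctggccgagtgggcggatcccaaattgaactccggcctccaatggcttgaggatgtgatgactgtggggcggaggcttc
Pycr1: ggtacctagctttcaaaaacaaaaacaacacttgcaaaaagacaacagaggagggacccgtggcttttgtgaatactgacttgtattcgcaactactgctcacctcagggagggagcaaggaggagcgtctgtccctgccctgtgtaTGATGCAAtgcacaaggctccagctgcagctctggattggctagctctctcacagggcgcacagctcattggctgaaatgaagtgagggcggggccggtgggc
The match starts 23 bases before the start site in Asns, 193 in Chac1 and 103 in both Pck2 and Pycr1. Pck2, the mitochondrial phosphoenolpyruvate carboxykinase, fell from 1000.2 and 1061 normalized counts to 450.3 and 451 (−1.19) and Pycr1, of proline synthesis, from 784 and 753 normalized counts to 299 and 297 (−1.36). Of the 23 members called lower that have a promoter here, 11 held these letters in the window from 250 bases before to 50 after the start, as did 12 of all 33 members with a promoter. Among all tested genes with a promoter the share was 2.99%. The list was drawn from known ATF4 targets, so a shared element is part of how its members were chosen.

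In one-carbon metabolism the genes of betaine breakdown fell most. Of the 20 one-carbon and glycine metabolism genes tested, 1 was called higher and 5 lower in D-EPSCs, with a median log2 fold change of −0.23. Dmgdh, dimethylglycine dehydrogenase (chromosome 13 from 94444388 to 94522786), had 385 and 398 normalized counts in the ESC libraries and 0 and 0 in the D-EPSC libraries, with 48.3 and 55.2 in the L-EPSC libraries, at least 128-fold lower in D-EPSCs against a floor of 3 reads in a library (limma adjusted p = 3.9e-07). Its neighbours Bhmt and Bhmt2, which pass a methyl group from betaine or its relatives to homocysteine, had 259 and 241 normalized counts in the ESC libraries and 0 and 1.96 in the D-EPSC libraries for Bhmt and 154 and 155 normalized counts in the ESC libraries and 0 and 1.96 in the D-EPSC libraries for Bhmt2. The ratio of ESCs to D-EPSCs was 255 (95% counting interval 68.9 to 2069) for Bhmt and 158 (95% counting interval 42.4 to 1279.7) for Bhmt2. The fitted log2 fold change of Bhmt was −7.19, between −6.40 without D-EPSC replicate 1 and −7.97 without D-EPSC replicate 2, and that of Bhmt2 was −6.50, between −5.71 and −7.28 without the same libraries. As close paralogs they may share reads. Amt, of the glycine cleavage system, fell from 1335 and 1369.5 normalized counts to 447 and 505 (−1.51). Shmt2, the mitochondrial serine hydroxymethyltransferase, stayed inside the threshold (−0.26), and the call of Mthfd2 (−0.65) was lost without D-EPSC replicate 1 (−0.55).

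Glycolysis genes fell in part, and hypoxia-response genes more often. Of the 21 glycolysis genes tested, 1 was called higher and 8 lower in D-EPSCs, with a median log2 fold change of −0.20. Aldoa fell from 19235 and 19402 normalized counts to 9012 and 8971 (log2 fold change −1.10, SE 0.02, limma adjusted p = 1.2e-08), Hk2 from 4329 and 4484 normalized counts to 2320.0 and 2281 (−0.94), Pfkp (−0.93) and Tpi1 (−0.78). The subunits of lactate dehydrogenase moved apart. Ldha fell from 8127 and 8155 normalized counts to 4843 and 4992 (log2 fold change −0.73, SE 0.02, limma adjusted p = 4.3e-07) and Ldhb, the form that favours lactate use, rose from 486 and 464 normalized counts to 3210.4 and 3285 (log2 fold change 2.77, SE 0.05, limma adjusted p = 3.4e-08), against 701 and 652 in L-EPSCs. Of the 15 hypoxia-response genes tested, 1 was called higher and 9 lower in D-EPSCs, with a median log2 fold change of −0.75. Vegfa fell from 1452 and 1622 normalized counts to 241 and 272 (log2 fold change −2.58, SE 0.09, limma adjusted p = 3.6e-07) and Ndrg1 from 369 and 389 normalized counts to 87.8 and 100.8 (log2 fold change −1.999, SE 0.11, limma adjusted p = 4.9e-06). Pdk1, whose kinase inhibits pyruvate dehydrogenase, was the hypoxia gene called higher, from 613 and 529 normalized counts to 2452 and 2377 (log2 fold change 2.08, SE 0.07, limma adjusted p = 2.8e-07). Hif1a, chosen after its value was seen, stayed inside the threshold (−0.04). The letters ACGTG, the core of the hypoxia response element on either strand, were in the promoter windows of 11 of 14 hypoxia-response genes and 14 of 20 glycolysis genes with a promoter, against 26.9% of all tested genes with a promoter. Of the members called lower, 6 of 8 with a promoter held them in each list. The hypoxia list was drawn from genes known to respond to hypoxia, so a shared element is part of how its members were chosen. The call of Ankrd37 (−1.13) was lost without ESC replicate 2 (limma adjusted p = 0.063).

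**Figure D4:**
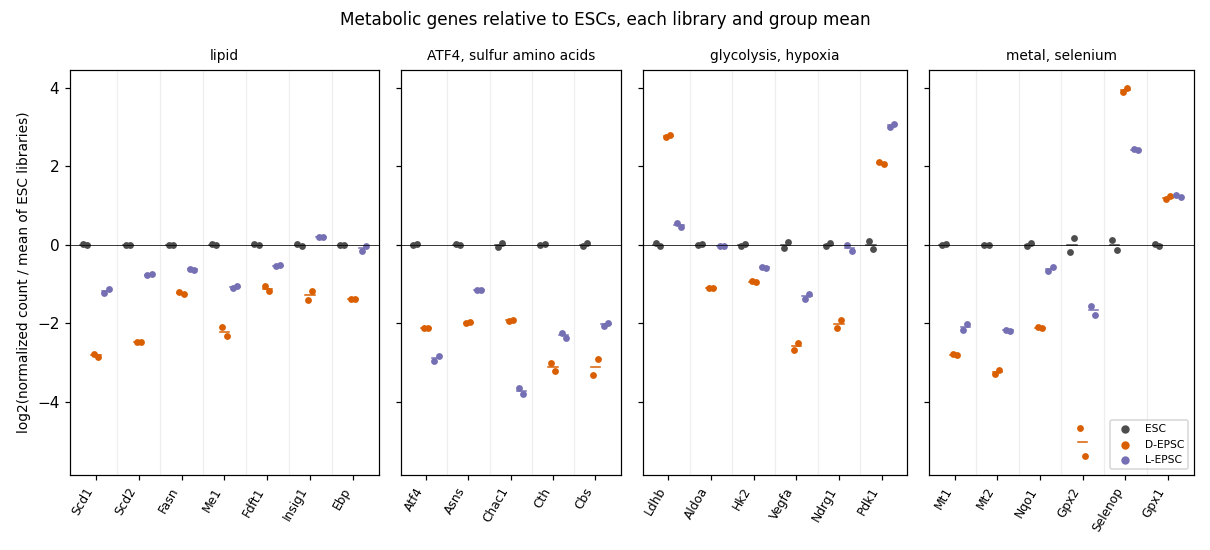
Log2 ratio of each library to the mean of the ESC libraries for metabolic genes, with a bar for each group mean and a line at 0 for no difference. D-EPSC points lie below 0 for the lipid and ATF4 genes and above it for Ldhb, Pdk1, Selenop and Gpx1. Gpx2 lies lowest, at 11.2 and 6.85 normalized counts in D-EPSCs.

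Single metal and redox genes changed by large factors, while 11 of 19 selenoprotein genes, 12 of 17 NRF2 target genes and 7 of 9 iron handling genes were not called. Mt1 and Mt2, the metallothioneins that bind zinc and copper, were in the list of glucocorticoid-inducible genes, of which 4 of 14 were called higher and 4 lower (median 0.08). Without D-EPSC replicate 1 or D-EPSC replicate 2, 2 were called higher. Mt2 had 6679 and 6656 normalized counts in the ESC libraries and 679 and 726 in the D-EPSC libraries, with 1489.7 and 1448 in the L-EPSC libraries (log2 fold change −3.25, SE 0.04, limma adjusted p = 7.8e-09) and Mt1 had 3222 and 3273 normalized counts in the ESC libraries and 472 and 459 in the D-EPSC libraries, with 724 and 803 in the L-EPSC libraries (log2 fold change −2.80, SE 0.06, limma adjusted p = 4.1e-08). Angptl4, an inhibitor of lipoprotein lipase, rose from 360.3 and 363 normalized counts to 1266 and 1276 (1.81), and Sgk1, a kinase that glucocorticoids induce, fell from 3789.5 and 3948 normalized counts to 2315 and 2400.5 (−0.71). The promoters of the neighbours Mt1 and Mt2 are shown because they fell together. They are Mt1 at chr8:94178839-94179088 on the plus strand and Mt2 at chr8:94172368-94172617 on the plus strand, 250 bases up to the start site, 5′ to 3′, from RefSeq on GRCm38.p6, with TGCACNC, a core of the metal response element, in capitals on either strand.
Mt1: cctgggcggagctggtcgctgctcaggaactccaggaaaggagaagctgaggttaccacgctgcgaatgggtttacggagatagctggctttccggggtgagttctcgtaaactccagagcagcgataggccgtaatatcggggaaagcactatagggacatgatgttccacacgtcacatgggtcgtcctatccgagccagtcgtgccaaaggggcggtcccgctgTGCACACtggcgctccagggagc
Mt2: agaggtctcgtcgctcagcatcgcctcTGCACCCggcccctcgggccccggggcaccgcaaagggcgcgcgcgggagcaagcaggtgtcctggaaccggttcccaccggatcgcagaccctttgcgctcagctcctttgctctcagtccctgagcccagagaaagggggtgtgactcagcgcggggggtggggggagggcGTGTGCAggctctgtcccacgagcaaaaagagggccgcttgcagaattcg
These letters occur once in the 250 bases of Mt1, 23 bases before the start, and in Mt2 223 and 50 bases before it. They are also in the window of 15.4% of all tested genes with a promoter.

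Of the 19 selenoprotein genes tested, 6 were called higher and 2 lower in D-EPSCs, with a median log2 fold change of 0.29. Selenop, the secreted carrier of selenium, had 141 and 117 normalized counts in the ESC libraries and 1906 and 2056 in the D-EPSC libraries, with 697 and 692 in the L-EPSC libraries (log2 fold change 3.93, SE 0.09, limma adjusted p = 6.9e-08). Gpx1, the cytosolic glutathione peroxidase, rose from 1556 and 1502 normalized counts to 3433 and 3591 (log2 fold change 1.199, SE 0.04, limma adjusted p = 2.9e-07), Selenow from 589 and 586 normalized counts to 1624 and 1626 (1.47) and Gpx3 from 186 and 174 normalized counts to 511 and 494 (1.48). Gpx2, the epithelial glutathione peroxidase, went the other way, from 253 and 322 normalized counts to 11.2 and 6.85 (log2 fold change −4.87, SE 0.27, limma adjusted p = 5e-06). Gpx2 is an NRF2 target as well, and of 17 such genes 1 was called higher and 4 lower (median −0.23). Nqo1, a quinone reductase, fell from 1251 and 1309.6 normalized counts to 297 and 294 (log2 fold change −2.11, SE 0.06, limma adjusted p = 1.4e-07), while Hmox1, heme oxygenase, stayed inside the threshold (−0.22). Fth1, the heavy chain of ferritin, rose from 12269.9 and 12302 normalized counts to 21963 and 22104 (log2 fold change 0.84, SE 0.02, limma adjusted p = 3.4e-08), and of 9 iron handling genes 2 were called higher and 0 lower, with 0 lower by edgeR or DESeq2 and 2 at an unadjusted p under 0.05. Macrophages express Selenop and Fth1 strongly. The summed macrophage markers were 4.60-fold higher in D-EPSCs than in ESCs, where Selenop was 15.3-fold and Fth1 1.79-fold higher. Single macrophage markers had log2 fold changes from −1.10 to 6.99, a range that includes those of Selenop and Fth1. The part of macrophage RNA in these rises was not tested. Selenon (0.74) was called, but not without ESC replicate 1, ESC replicate 2 or D-EPSC replicate 2 (log2 fold change 0.54 in the last case).

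Other genes with large gains in counts were Apoe, apolipoprotein E, from 2601 and 2656 normalized counts to 7572 and 7571 (log2 fold change 1.53, SE 0.05, limma adjusted p = 4.9e-07), the lysosomal proteases Ctsb from 8491 and 8496 normalized counts to 16432 and 16433 (0.95) and Ctsd from 7885 and 7959.7 normalized counts to 14319 and 13941 (0.83), Tpt1 from 14089 and 14196 normalized counts to 22301 and 22426 (0.66) and Odc1, the first enzyme of polyamine synthesis, from 5402 and 5499 normalized counts to 9109.5 and 9062 (0.74). Macrophages also make much Apoe, Ctsb and Ctsd, for which the same summed marker levels hold. Lars2, mmu-mir-689-2 and AC113316.1 rose by log2 fold changes of 1.27, 1.34 and 1.30, features that can collect reads of ribosomal RNA, so that their values are uncertain. Ckb, brain creatine kinase, was among the genes with the largest losses, from 14044 and 14357 normalized counts to 2459.9 and 2554 (log2 fold change −2.50, SE 0.03, limma adjusted p = 7.8e-09), with 1405 and 1347 in L-EPSCs.

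Few genes of respiration and translation were called. Of the 13 mitochondrially encoded protein genes, limma, edgeR and DESeq2 each called 0, while 5 were higher and 1 lower at an unadjusted p under 0.05 (median 0.13), and mt-Co1, a subunit of complex IV, had 138729 and 132454 normalized counts in the ESC libraries and 119469.6 and 121041 in the D-EPSC libraries (−0.17). Of 82 nuclear respiratory chain genes, 1 was called higher and 1 lower, as were 1 and 1 of 78 mitochondrial ribosomal protein genes, shares below the background of both directions. With each library left out in turn these 4 counts lay between 0 and 2, for example 0 higher in both lists without ESC replicate 1. Minocycline belongs to the tetracyclines, which act on bacterial and, at high doses, mitochondrial ribosomes. The 78 cytosolic ribosomal protein genes were mostly slightly higher in D-EPSCs, below the fold threshold. Limma, edgeR and DESeq2 each called 0 of them, and 67 were higher and 3 lower at an unadjusted p under 0.05, with a median log2 fold change of 0.18. Without D-EPSC replicate 1 limma called 1 higher. Among 54 initiation factor genes, 2 were called higher and 5 lower, or 3 without D-EPSC replicate 2. Eif2s2, the beta subunit of eIF2, fell from 15435 and 14975 normalized counts to 6227 and 5901 (log2 fold change −1.33, SE 0.03, limma adjusted p = 6e-08), and Eif2b5, a subunit of its exchange factor, from 5341 and 5323 normalized counts to 2054 and 1992 (log2 fold change −1.40, SE 0.04, limma adjusted p = 1.1e-07). Of the 6 histamine and muscarinic receptor genes tested, the receptor families that dimethindene binds, limma, edgeR and DESeq2 each called 0, with 1 higher and 0 lower at an unadjusted p under 0.05 and 1 called higher by limma without any single library but those of ESCs. Chrm4, which had the most reads of them, stood at 15.3 and 12.9 normalized counts in the ESC libraries and 17.4 and 9.79 in the D-EPSC libraries.

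Cell cycle genes were called lower more often than higher. Of the 29 cell cycle genes tested, 1 was called higher and 6 lower in D-EPSCs, with a median log2 fold change of −0.32. The replication licensing genes Mcm4 from 5527 and 5203 normalized counts to 3058 and 2993 (−0.83) and Mcm5 (−0.72), Ccne2, which encodes a cyclin of S phase entry, (−0.91) and Ccnd3 (−0.75) fell, while Ccnd1 had 3488 and 3263 normalized counts in the ESC libraries and 3550.5 and 3471 in the D-EPSC libraries (0.06). Of the 24 p53 target genes tested, 4 were called higher and 1 lower in D-EPSCs, with a median log2 fold change of 0.16, and without D-EPSC replicate 1 the number lower was 2. Cdkn1a, the inhibitor p21, fell from 3940.5 and 3778 normalized counts to 2394 and 2285 (log2 fold change −0.72, SE 0.05, limma adjusted p = 1.4e-05), while Gadd45a from 185 and 198 normalized counts to 559 and 518 (1.48) and Pmaip1, encoding NOXA, from 145 and 172 normalized counts to 417 and 406 (1.38) rose. Mdm2, the feedback inhibitor of p53, stayed inside the threshold (0.10).

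Genes of the germline were called higher more often than lower in D-EPSCs. Of the 22 germline genes tested, 12 were called higher and 3 lower in D-EPSCs, with a median log2 fold change of 1.25, or 7 higher without D-EPSC replicate 1 or D-EPSC replicate 2. Piwil2 and Mov10l1, of the piRNA pathway, rose from 27.0 and 32.3 normalized counts to 197 and 210.5 (log2 fold change 2.75, SE 0.14, limma adjusted p = 3.8e-06) and from 32.4 and 24.0 normalized counts to 115 and 126 (log2 fold change 2.08, SE 0.19, limma adjusted p = 7.6e-05). Smc1b, a meiotic cohesin subunit, rose from 37.74 and 51.6 normalized counts to 151 and 191 (1.92). Dazl, an RNA-binding protein gene of germ cells, was not called, with 145 and 155 normalized counts in the ESC libraries and 182 and 175 in the D-EPSC libraries (0.25), and Tex15 fell from 324 and 277 normalized counts to 133 and 120.4 (−1.24). Against L-EPSCs, 4 of these 22 genes were lower in D-EPSCs and 0 higher by limma, against 4.8% and 8.58% of all genes tested. Called higher by edgeR or DESeq2 were 0 of them, and 1 was higher at an unadjusted p under 0.05. The Rhox homeobox genes of the X chromosome, a family of close copies that may share reads, had 4 members called higher and 0 lower of 10, and the number higher was 0 or 1 without ESC replicate 1, ESC replicate 2 or D-EPSC replicate 1. None was called lower by edgeR or DESeq2 either, and 0 were lower at an unadjusted p under 0.05.

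Among imprinted genes, 14 of 34 were called higher and 2 lower (median 0.49). Plagl1, a zinc finger factor of an imprinted growth network, fell the most of this list and had 3178 and 3024 normalized counts in the ESC libraries and 116 and 120.4 in the D-EPSC libraries, with 614 and 583 in the L-EPSC libraries (log2 fold change −4.70, SE 0.06, limma adjusted p = 7.8e-09). Nnat, encoding neuronatin, rose from 30.6 and 32.3 normalized counts to 243 and 225 (log2 fold change 2.86, SE 0.16, limma adjusted p = 5.7e-06), Peg3 from 361 and 376 normalized counts to 761 and 766 (1.05) and Peg10 from 557 and 588 normalized counts to 1258 and 1264 (1.14), the last of which reached 4241 and 4055 in L-EPSCs. Snrpn, listed in the table as Gm38393, rose from 511 and 471 normalized counts to 1445 and 1549.7 (1.61). The maternally expressed RNAs Meg3 (0.80), Rian (0.91) and Mirg (0.97) of the Dlk1 domain on chromosome 12 rose together. H19, with 3458 and 3611 normalized counts in the ESC libraries and 4130.5 and 4086 in the D-EPSC libraries, and Igf2, with 1547 and 1405 normalized counts in the ESC libraries and 1166 and 1165 in the D-EPSC libraries, stayed inside the threshold in D-EPSCs (0.22 and −0.34). The other imprinted gene called lower, Zrsr1 (−0.66), kept its call without D-EPSC replicate 2 and lost it without each other library (limma adjusted p = 0.15 without D-EPSC replicate 1).

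Interferon-stimulated genes were called higher more often than lower in D-EPSCs. Of the 34 interferon-stimulated genes tested, 14 were called higher and 2 lower in D-EPSCs, with a median log2 fold change of 0.50. Ifit2, an RNA-binding antiviral protein gene, had 653 and 670.5 normalized counts in the ESC libraries and 3047 and 3143 in the D-EPSC libraries, with 1027 and 955 in the L-EPSC libraries (log2 fold change 2.22, SE 0.05, limma adjusted p = 5.5e-08). Mx1, the antiviral GTPase, had 157 and 168 normalized counts in the ESC libraries and 735 and 711 in the D-EPSC libraries, with 139 and 138 in the L-EPSC libraries (log2 fold change 2.15, SE 0.09, limma adjusted p = 9.5e-07). In both genes the D-EPSC libraries lay above those of the other states. Rsad2, which encodes viperin, from 345 and 386 normalized counts to 1230.5 and 1246 (1.76) and the GTPase gene Gbp2 from 248 and 323 normalized counts to 881 and 949.6 (1.69) rose too. Irf7, a transcription factor gene of the response, had 2021 and 1987 normalized counts in the ESC libraries and 1877 and 1934 in the D-EPSC libraries and was not called (−0.07), and Oas1a from 2221 and 2115 normalized counts to 908 and 1010.3 (−1.18) and Xaf1 from 2368 and 2356 normalized counts to 1005 and 1006 (−1.23) fell. Tested against L-EPSCs, 20 members were higher in D-EPSCs, against 8.58% of all genes tested. The summed macrophage markers were 4.60-fold higher in D-EPSCs than in ESCs and 1.42-fold higher than in L-EPSCs, and the fibroblast markers 2.07-fold higher than in L-EPSCs, beside log2 fold changes between the same libraries of 2.38 for Mx1 and 1.64 for Ifit2. Their part in these differences was not tested.

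The Serpina3 genes on chromosome 12 encode secreted or intracellular protease inhibitors that acute-phase and glucocorticoid signals induce. Of the 9 Serpina3 family genes tested, 5 were called higher and 0 lower in D-EPSCs, with a median log2 fold change of 1.87. By edgeR and DESeq2 0 were lower, and 1 was at an unadjusted p under 0.05. Serpina3m had 11.7 and 6.46 normalized counts in the ESC libraries and 577 and 545 in the D-EPSC libraries, with 3.08 and 1.15 in the L-EPSC libraries (log2 fold change 5.85, SE 0.43, limma adjusted p = 2.3e-05) and Serpina3g 65.6 and 72.9 normalized counts in the ESC libraries and 609.6 and 591 in the D-EPSC libraries, with 51.4 and 58.6 in the L-EPSC libraries (log2 fold change 3.10, SE 0.13, limma adjusted p = 1.4e-06). Serpina3n, also expressed by fibroblasts, rose from 41.3 and 37.8 normalized counts to 154 and 141 (1.87). These genes are close copies, so that reads could be shared among them and the value of each is uncertain. The chemokine genes Ccl11 from 20.7 and 11.99 normalized counts to 285 and 298 (4.12) and, chosen after their values were seen, Cxcl1 from 48.5 and 41.5 normalized counts to 295 and 328 (2.77) and Cxcl10 from 56.6 and 93.1 normalized counts to 736 and 731 (3.32) were higher, with L-EPSCs at 4.11 and 14.9, 40.1 and 27.6 and 125 and 118. The call of Ccl11 was lost without ESC replicate 2, D-EPSC replicate 1 or D-EPSC replicate 2 (limma adjusted p = 0.064 to 0.066). Fibroblasts and macrophages make chemokines, and the part of such cells was not tested.

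Genes that set D-EPSCs apart from both other states were found by requiring a call in the same direction against ESCs and against L-EPSCs, contrasts that share the D-EPSC libraries. There were 835 such genes higher (3.88% of those tested) and 529 lower (2.46%). The leading genes that were higher were Serpina3m, Tnxb, Fgf1, Ccl11, Pax6, Steap4, Bcl11a and Serpina3g. Tnxb, a matrix protein of the tenascin family, had 8.99 and 10.1 normalized counts in the ESC libraries and 260.4 and 282 in the D-EPSC libraries, with 1.03 and 1.15 in the L-EPSC libraries (log2 fold change 4.69, SE 0.35, limma adjusted p = 2.5e-05), with 7.03 for D-EPSCs minus L-EPSCs. Bcl11a, a zinc finger repressor, had 4.49 and 2.77 normalized counts in the ESC libraries and 295 and 328 in the D-EPSC libraries, with 33.9 and 25.3 in the L-EPSC libraries (log2 fold change 6.10, SE 0.31, limma adjusted p = 3.2e-06). Steap4, a metalloreductase, had 18.0 and 23.1 normalized counts in the ESC libraries and 318 and 271 in the D-EPSC libraries, with 19.5 and 19.5 in the L-EPSC libraries (log2 fold change 3.78, SE 0.23, limma adjusted p = 9e-06). The leading genes that were lower were Cdx1, Dmgdh, Nkx1-2, Sp5, Pou2f3, Bhmt2, Dnah8 and Gpx2. Pou2f3, a POU factor of tuft cells, fell from 237 and 298 normalized counts to 6.13 and 3.92 (log2 fold change −5.49, SE 0.26, limma adjusted p = 2.4e-06) with 79.2 and 77.0 in L-EPSCs, and Dnah8, a dynein heavy chain of the sperm tail, fell from 916 and 874 normalized counts to 68.4 and 78.3 (log2 fold change −3.59, SE 0.10, limma adjusted p = 1.8e-07) with 670.3 and 791 in L-EPSCs.

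**Figure D5:**
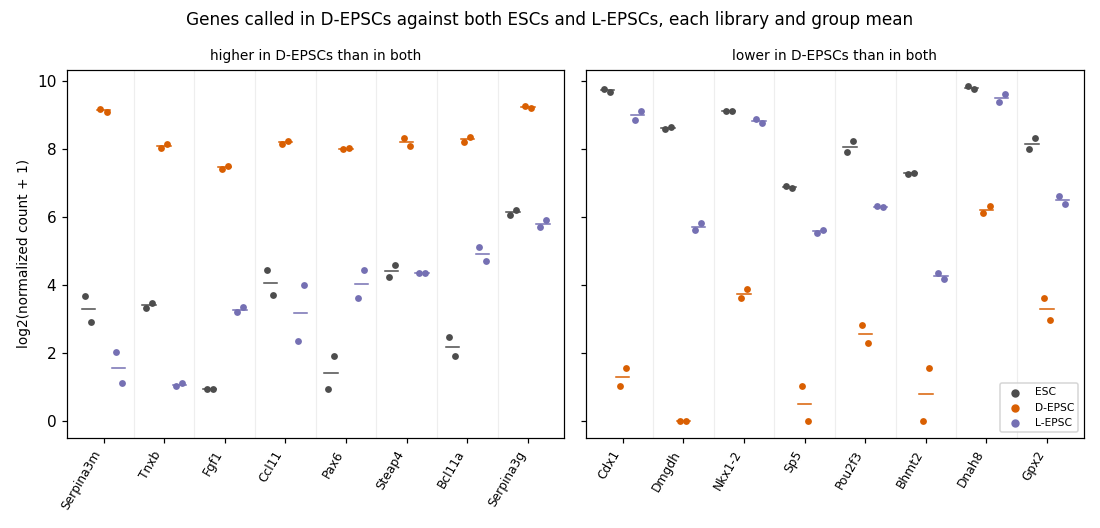
Log2(normalized count + 1) of the 8 leading genes called higher (left) and lower (right) in D-EPSCs than in both ESCs and L-EPSCs, with a point for each library and a bar for each group mean. In every panel gene the D-EPSC points do not overlap with those of the other states, as with Tnxb at 260.4 and 282 normalized counts. The genes were picked by these calls, and 64.8% of all genes tested had no overlap between the ESC and D-EPSC libraries.

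Several other genes ranked among the largest log2 fold changes, and L-EPSCs shared some of these changes. Vrtn, a gene of vertebral patterning, had 0 and 0 normalized counts in the ESC libraries and 104 and 98.9 in the D-EPSC libraries, with 65.8 and 70.1 in the L-EPSC libraries, at least 36.7-fold higher than in ESCs against a floor of 3 reads in a library. Zfp423, a zinc finger factor of BMP and retinoid signalling, rose from 14.4 and 18.4 normalized counts to 947 and 962 (log2 fold change 5.79, SE 0.12, limma adjusted p = 4.1e-08), with 1061 and 1094 in L-EPSCs. Slc13a3, a dicarboxylate transporter gene, rose from 2.696 and 4.61 normalized counts to 319.6 and 319 (log2 fold change 6.14, SE 0.23, limma adjusted p = 6.8e-07). Enpp3, an ectonucleotidase gene, rose from 32.4 and 19.4 normalized counts to 1539 and 1628 (log2 fold change 5.93, SE 0.20, limma adjusted p = 3.9e-07), with 524 and 507 in L-EPSCs. Crxos, a homeobox gene, fell from 1130.5 and 1221 normalized counts to 22.5 and 18.6 (log2 fold change −5.78, SE 0.16, limma adjusted p = 1.5e-07) and Pkd2l1, a channel of acid-sensing cells, from 416 and 439.9 normalized counts to 5.11 and 1.96 (log2 fold change −6.66, SE 0.54, limma adjusted p = 4.1e-05). Wdr86 was higher at 5.71, but with 0 and 4.61 normalized counts in ESCs its value ran from 4.47 without ESC replicate 1 to 6.96 without ESC replicate 2, and its call was lost without D-EPSC replicate 1 or D-EPSC replicate 2 (limma adjusted p = 0.064 and 0.067). Mal, a raft protein gene, had a ratio of ESCs to D-EPSCs of 148 (95% counting interval 41.5 to 1253) and a fitted log2 fold change of −6.44, between −7.25 without D-EPSC replicate 1 and −5.64 without D-EPSC replicate 2.

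Called genes that are neighbours on a chromosome formed 39 runs of at least 4 tested genes in the same direction, 22 of them higher and 17 lower. The run with the largest median log2 fold change, −3.76, held 6 genes on the X chromosome from 70319684 to 70404211 of NCBIM37, Xlr4a, Xlr3a, Xlr5a, Pwwp4a, Pwwp4b and Xlr5b. Xlr3a, which led it in counts, fell from 498 and 449 normalized counts to 42.9 and 45.0 (log2 fold change −3.40, SE 0.11, limma adjusted p = 2.9e-07), with 295 and 289.6 in L-EPSCs. Xlr5a lost its call without ESC replicate 1 or ESC replicate 2 (limma adjusted p = 0.058 and 0.064), and Pwwp4a, at 20.7 and 6.46 normalized counts in ESCs and 0 in D-EPSCs, lost it without any of these 4 libraries. The Xlr genes are near-identical copies whose reads may be split among them, so that the run may rest on fewer genes than it counts. A run on chromosome 5 from 37633319 to 38108392 held Crmp1, Evc, Evc2 and Stk32b (median 3.58). Crmp1, a neuronal phosphoprotein gene, rose from 29.7 and 34.1 normalized counts to 965 and 1018 (log2 fold change 4.92, SE 0.10, limma adjusted p = 4.1e-08), and the ciliary genes Evc from 46.7 and 36.0 normalized counts to 698 and 659.8 (4.02) and Evc2 from 89.9 and 73.8 normalized counts to 705 and 743 (3.14) rose with it, while Stk32b had 0 reads in ESCs and 7 in D-EPSCs in all and was not called without ESC replicate 1 (limma adjusted p = 0.088) or ESC replicate 2. On chromosome 4 from 41516808 to 41716347, Dnai1, Enho, Cntfr and Il11ra1 were higher (median 3.38), and Cntfr, a receptor of the LIF cytokine family, rose from 10.8 and 18.4 normalized counts to 325 and 298 (log2 fold change 4.36, SE 0.22, limma adjusted p = 3.3e-06), while Enho was called but not without ESC replicate 1 (limma adjusted p = 0.075), D-EPSC replicate 1 or D-EPSC replicate 2. The other runs among the leading 5 held macrophage genes, the chemokine cluster on chromosome 11 from 83386421 to 83519770 (median 3.58) and the C1q genes with Ephb2, Epha8 and Zbtb40 on chromosome 4 from 136203454 to 136604716 (median 3.54), of which Epha8 and Zbtb40 lost their calls without D-EPSC replicate 1 among other libraries (limma adjusted p = 0.081 and 0.05).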

How the data were processed

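RNA-seq was compared between 2 J1 D-EPSC and 2 J1 ESC libraries, with 2 J1 L-EPSC libraries in the same fit. The authors prepared poly(A) libraries with the Universal Plus mRNA-Seq kit. Per the labels, reads were trimmed with Trim Galore 0.6.4, aligned to NCBIM37 with STAR 2.7.9a and counted per gene with HTSeq 0.11.2, and the strand setting is not given in the sources used here. The authors deposited a signal per gene, the count divided by a size factor of the library. Dividing by the value of 1 read gave whole reads for all values, within a tolerance of 0.05, and these reads give the depths.

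Genes with more than 1 read in total were tested (21533 of 23095) on log2(normalized count + 1) in limma 3.58.1 under R 4.3.3, with a mean for each of the 3 groups and 1 shared estimate of spread. Adjusted p-values are Benjamini-Hochberg over all genes tested, and all tests are two-sided. An exact permutation test of 2 libraries against 2 cannot go below p = 0.333 and was not used. The scripts were tested on simulated data. Alternatives were edgeR 4.0.16 and DESeq2 1.42.0 run on the recovered reads, median centring, TMM scaling, other filters on low values, a pseudocount of 0.1, only the groups compared, the replicate block, each library left out and a threshold of 1. On the recovered reads, edgeR called 2348 genes higher and 2153 lower.

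The members and the 41 gene lists were chosen with earlier results of these data known. Of the list entries, 11 did not match the table and were not analysed here. Named genes were, in each direction, the 12 largest log2 fold changes, up to 5 members of each list, the 10 largest differences in counts, the 8 leading genes against both other states, all of them averaging 100 or more in the group where they were higher, the members of the 5 leading runs of neighbours, and the feeder markers. The following were named after their values were seen: Acaca, Ccn1, Ccnd1, Cdx2, Cxcl1, Cxcl10, Dazl, Ddit3, Dusp5, Etv4, Etv5, Fgf3, Fgf4, Fgf5, Gata3, Gata4, Gata6, H19, Hif1a, Hmox1, Hspa5, Igf2, Irf7, Jun, Ldha, Lgr5, Mdm2, Meg3, Notum, Pck2, Pou5f1, Pycr1, Rian, Shmt2, Spry1, Spry2, Srebf1, Srebf2, Tpi1, Trib3 and Zfp42. Intervals and floors cover counting error only. Some results are not reported here. A second table, of another experiment of the series, was not used here.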

Additional observations from a re-analysis of the deposited data

How the results depend on the processing

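The counts of 2316 genes higher and 2150 lower than in ESCs, and the 835 and 529 against both other states, stayed within 1.5 times of these numbers under edgeR, DESeq2, TMM scaling, median centring, the other pseudocount and filters, and with only the groups compared. A threshold of 1 gave 493 higher and 319 lower against both states. Similar totals do not mean the same genes. With only the groups compared, 1943 of the 2316 genes higher and 1892 of the 2150 lower than in ESCs were called again. Of the 835 and 529 against both states, 600 and 358 were called again. With each library left out in turn, 1 group was left with 1 library. The genes called in those fits were in part others, so their totals are not read as stability. The replicate block gave 2258 higher and 2091 lower than in ESCs, and 794 and 514 against both states. Deviations of libraries with the same number from their group means correlated at −0.008, 0.006 and 0.026 over 10317 genes, so the numbers were not taken to pair the libraries. Without the fibroblast and macrophage markers 2280 genes were higher and 2143 lower. That run only took the markers themselves out of the fit. It cannot show how much feeder or macrophage RNA the other genes hold. Of 339 named genes, 299 of them called, none of the called changed sign under any alternative run, and 46 lost their call in at least 1 fit that left out a library. Of those not called, 7 changed sign in at least 1 alternative, among them Chrm2 (−0.30), at 0.80 without ESC replicate 1 and 0.51 without D-EPSC replicate 2. Other alternatives ended at most 7 calls each. The named genes were mostly picked by their calls in these same libraries, which every alternative reuses. Stable signs are therefore no separate support for their directions. List counts moved by over 1.5 times for 29 of 82 at a threshold of 1 and for at most 5 under any other alternative that kept all libraries. With 2 libraries a group and few reads, lists such as the Hox and Rhox genes depend on single libraries.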
